A study of Mus musculus with 7 samples.

Results

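Oxidative phosphorylation is carried out by protein complexes of the inner mitochondrial membrane, and most of their subunits are encoded in the nucleus. The genes described here are those nuclear genes, chosen by symbol from the rows of the deposited matrices: Ndufa, Ndufb, Ndufc, Ndufs or Ndufv with a number, Sdha to Sdhd, Uqcr genes, Cyc1, Cycs, the Cox4i, Cox5, Cox6, Cox7 and Cox8 genes, and Atp5 genes. The rule found 85 of 33710 listed genes. They comprised 37 genes of complex I, 4 of complex II, 9 of complex III, the cytochrome c gene, 17 of complex IV and 17 of complex V. Rows of 7 pseudogenes with such names, holding 17 to 132 UMIs each, were left out. The symbol decides membership, so Ndufa4 is counted with complex I although its protein is now regarded as a subunit of complex IV. Cox7a2l is counted with complex IV although its protein is described as a factor of supercomplexes, which was not examined in these mice. Atp5s and Atp5sl likewise carry Atp5 symbols without being classical subunits of the enzyme.

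Complex I oxidizes NADH and complex II oxidizes succinate, and both pass electrons to ubiquinone. Complex III passes them to cytochrome c, complex IV passes them on to oxygen, and complex V makes ATP from the proton gradient that complexes I, III and IV build up. The hydrophobic core of complexes I, III, IV and V is encoded by mitochondrial DNA, and the nuclear genes provide the other core and accessory subunits. In the mammary gland, luminal cells use this machinery to fuel milk synthesis.

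Transcripts were counted cell by cell with Drop-seq, which captures the 3′ ends of mRNAs on barcoded beads in droplets and counts each captured molecule by a unique molecular identifier (UMI). Each of 7 mammary tumors gave 1 library. The mice carried MMTV-PyMT and HK2 f/f, which means that the MMTV promoter drives the polyoma middle T oncogene mainly in mammary epithelium and both alleles of hexokinase 2 are flanked by loxP sites. These mice are the controls of a study of systemic HK2 deletion. They carry no Cre transgene, are listed as wild type in the labels, and were given tamoxifen like the mice of the deleted arm. The labels place the tumors 3 months after a palpable mass, and the methods describe an endpoint defined by tumor size. Replicates 1 to 4 carry titles of a CB series and replicates 5, 7 and 8 titles of a WT series, and what separates the series is not given in the sources used here. The HK2-deleted arm is not used here, and every comparison below is between cell classes of the same control tumors.

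Of 37000 barcodes, 15047 had 200 to 6000 genes and were kept as cells, 1133 to 4780 per tumor, with 962677 to 4471473 UMIs per tumor and medians of 527 to 694 UMIs per cell. Cells were clustered without the genes described here, and clusters were named from marker lists. The named classes were tumor/alveolar-like (6366 cells), hormone-sensing-like (1196 luminal epithelial cells, 64.3% of them from 1 library), T/NK-like (2219), B-like (555), macrophage-like (1360) and fibroblast-like (1019), and 2332 cells in 3 clusters stayed unnamed. The viral oncogene averaged 1749 to 2110 UMIs per 1000000 UMIs of the cluster (counts scaled in this way are called CPM below) in the 3 tumor/alveolar-like clusters. It was lowest in the macrophage-like cluster (105 CPM), with 139 to 157 CPM in T/NK-like and fibroblast-like, 216 CPM in hormone-sensing-like and 405 CPM in B-like cells. The unnamed clusters 3, 8 and 11 gave 276, 580 and 649 CPM. RNA of tumor/alveolar markers was also found in other classes: the 11 tumor/alveolar markers, which sum to 36293 to 65825 CPM in tumor/alveolar-like cells of the 7 tumors, reached 4820 to 21908 CPM in B-like cells, 558 to 8859 CPM in T/NK-like, 2008 to 8077 CPM in hormone-sensing-like, 314 to 6467 CPM in fibroblast-like and 613 to 5278 CPM in macrophage-like cells. Its part in the results below was not tested. In the other direction, tumor/alveolar-like cells held 48.9 to 369 CPM of the 10 macrophage markers and 6.84 to 69 CPM of the 15 T/NK markers. The T/NK-like class of replicate 8 held only 31 cells and 12928 UMIs, so that 1 UMI there equals 77.4 CPM. In all, 5 barcode sequences were found as cells in more than 1 library.

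The promoters of the genes were looked at first, because many of them are textbook targets of the nuclear respiratory factor NRF1, of ETS-type factors (NRF2, which contains GABPA, is one of them) and of YY1. RefSeq promoter sequences (GRCm38.p6, 250 bases before to 50 after the start of transcription) were matched by symbol for 69 of the 85 genes, giving 75 promoters. On either strand, the NRF1 motif GCGCANGCG was found in 22 of these (29.3%), beside 6.25% of all 32851 promoters. The ETS motif CCGGAAG was found in 16 (21.3%), beside 8.86%, and the YY1 motif AAGATGGC in 12 (16%), beside 2.75%. At least 1 of the 3 motifs was found in 42 of the 75 promoters (56%), beside 16% of all promoters. By complex, the YY1 motif was found in 7 of 34 promoters of complex I and 5 of 20 of complex V, and in none of those of complexes II, III and IV. The NRF1 motif was found in 9 of 34 promoters of complex I, 7 of 20 of complex V and 1 of 12 of complex IV. These counts are of promoters and not of genes, and windows of the same gene can overlap. The overlapping windows of Atp5sl (complex V) each carry the YY1 motif, and those of Ndufa5 (complex I) each carry the NRF1 motif. Such matches describe the letters of these windows and say nothing of binding. Promoters of 4 genes that return in the results below are shown 5′ to 3′ and were chosen after their values had been seen. Uqcr11 (chr10:80406772-80407071, minus strand) carries an ETS motif that begins at -66 and an NRF1 motif that begins at -5, and Cycs (chr6:50566520-50566819, minus strand) carries an NRF1 motif that begins at -61. Ndufa4 (chr6:11907401-11907700, minus strand) and Cox8b (chr7:140900397-140900696, minus strand) hold none of the 3 motifs in this window. Capitals mark the motifs.
Uqcr11: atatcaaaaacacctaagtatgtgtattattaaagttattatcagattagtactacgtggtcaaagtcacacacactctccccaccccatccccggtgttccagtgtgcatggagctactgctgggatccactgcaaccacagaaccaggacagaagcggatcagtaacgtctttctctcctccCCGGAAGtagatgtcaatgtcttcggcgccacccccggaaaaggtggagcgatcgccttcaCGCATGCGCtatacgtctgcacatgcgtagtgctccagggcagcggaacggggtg
Cycs: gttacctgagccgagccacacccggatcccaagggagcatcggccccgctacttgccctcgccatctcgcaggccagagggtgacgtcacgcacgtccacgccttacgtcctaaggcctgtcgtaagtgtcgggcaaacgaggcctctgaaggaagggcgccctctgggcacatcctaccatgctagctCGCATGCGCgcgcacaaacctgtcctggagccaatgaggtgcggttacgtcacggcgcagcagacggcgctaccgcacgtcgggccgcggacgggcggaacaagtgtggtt
Ndufa4: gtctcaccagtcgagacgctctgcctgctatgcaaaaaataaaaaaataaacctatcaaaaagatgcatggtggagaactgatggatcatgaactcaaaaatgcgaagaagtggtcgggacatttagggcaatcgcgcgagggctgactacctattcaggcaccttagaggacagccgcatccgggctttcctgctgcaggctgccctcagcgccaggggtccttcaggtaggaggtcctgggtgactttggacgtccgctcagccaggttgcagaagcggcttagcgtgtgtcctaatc
Cox8b: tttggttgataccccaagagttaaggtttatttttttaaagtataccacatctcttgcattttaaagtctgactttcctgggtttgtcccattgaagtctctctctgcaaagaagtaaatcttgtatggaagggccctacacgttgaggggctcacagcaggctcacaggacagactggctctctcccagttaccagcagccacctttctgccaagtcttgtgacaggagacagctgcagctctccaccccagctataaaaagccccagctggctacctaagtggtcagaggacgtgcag

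In the GENCODE annotation of GRCm38, 83 of the 85 symbols have exactly 1 gene, and the genes lie on 19 chromosomes, 3 of them on X. Exons of 4 genes overlap another gene on the same strand: Ndufb9 overlaps Gm49356, Ndufb2 Gm42420, Ndufb8 Gm20538 and Atp5g2 Mir688. Exons of 25 genes overlap a gene on the other strand, such as Gm26631 for Cox5a and Rbm10 for Ndufb11. Whether the counting used strand is not given in the sources used here, so reads of these genes and of their partners may be mixed. Several members also have processed pseudogenes, such as the Uqcrh and Atp5l copies left out above, with which reads could be shared.

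Within each complex the genes differed widely in level, here the mean CPM over the 6 named classes. Complex I was led by Ndufa4 (537 CPM) and by Ndufa13 (469 CPM), an accessory subunit, and 30 of its 37 genes exceeded 100 CPM. In complex II, Sdhb (175 CPM), the iron-sulfur subunit, stood above Sdhc (117 CPM) and Sdhd (89.7 CPM), which anchor the complex in the membrane, and above Sdha (79.8 CPM), the flavoprotein that binds succinate. Complex III was led by Uqcrh (557 CPM), the hinge protein, and Uqcrq (348 CPM), while Cyc1 (122 CPM), which carries the heme of cytochrome c1, was its lowest gene. Cycs, the mobile electron carrier between complexes III and IV, stood at 154 CPM. Complex IV held the gene with the highest level of all, Cox4i1 (1101 CPM), followed by Cox7c (785 CPM), and also 6 genes under 10 CPM, all of them tissue-restricted isoforms. Complex V was led by Atp5b (652 CPM), the catalytic beta subunit, and Atp5e (574 CPM), the epsilon subunit. Of the summed CPM of the 85 genes, complex I took 32.6%, complex IV 29.5%, complex V 24.7%, complex III 10.6%, complex II 2% and Cycs 0.671%. Ndufa4 is in the share of complex I here. Counting it in complex IV would lower the share of complex I and raise that of complex IV, so their order follows the symbol rule. CPM of Drop-seq are counts of 3′ ends and need no correction for length, but primers and alignment can favor some genes.

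Among the 6 named classes, the mean summed level of the 85 genes was highest in the epithelial classes and lowest in macrophage-like and fibroblast-like cells. In hormone-sensing-like cells the sum ranged over the 7 tumors from 28459 through a median of 30992 to 34518 CPM (31541 ± 2047, SD, n = 7), or 3.15% of all UMIs. In tumor/alveolar-like cells it ranged from 25636 through 26368 to 31118 CPM (27529 ± 2127, n = 7). In T/NK-like cells it ranged from 18951 through 25540 to 28142 CPM (23836 ± 3579, n = 7). Both epithelial classes overlapped between tumors, and within a tumor the hormone-sensing-like sum was the higher in 6 of 7, by 1.15-fold on average (0.974 to 1.28). The tumor/alveolar-like sum exceeded that of T/NK-like cells in only 5 of 7 tumors (1.15-fold, 0.919 to 1.37), so these neighbors did not differ beyond their spread. B-like cells, counted in the 5 tumors with at least 10 of them, gave 16691 through 18092 to 25906 CPM (20487 ± 4535, n = 5), which overlapped T/NK-like and tumor/alveolar-like cells.

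Macrophage-like cells gave 15501 through 17669 to 19896 CPM (17602 ± 1356, n = 7) and fibroblast-like cells 13882 through 16661 to 19763 CPM (17050 ± 2218, n = 7). These classes overlapped each other, the former being the higher in 4 of 7 tumors, and each overlapped T/NK-like and B-like cells. Neither overlapped tumor/alveolar-like cells, whose sum was higher in all 7 tumors, by 1.56-fold (1.30 to 1.76) over macrophage-like and by 1.61-fold (1.31 to 2.01) over fibroblast-like cells. The macrophage-like class is 1 cluster of 1360 cells. The unnamed cluster 3 (1329 cells), which scored best on the macrophage list, gave 20071 through 23596 to 25811 CPM. It lay above macrophage-like cells without overlap and overlapped tumor/alveolar-like cells. These sums are shares of a cell's UMIs, so genes that dominate a class lower the share of all others. The 90 cytosolic ribosomal protein genes took 21.7% of UMIs in T/NK-like, 13.9% in tumor/alveolar-like, 11.4% in hormone-sensing-like, 9.79% in macrophage-like and 9.07% in fibroblast-like cells. Class markers and milk genes took 9.78% in macrophage-like, 9.73% in B-like, 6.17% in fibroblast-like, 5.35% in tumor/alveolar-like, 2.27% in T/NK-like and 1.51% in hormone-sensing-like cells. With these genes left out of the totals, complexes III, IV and V of macrophage-like cells rose to means of 2084, 5808 and 4753 CPM. This step scales all other genes of a class alike and only by such shares, so it is no test of the difference. In the fits by library totals below, the median log2 fold change of all genes was 0.47 over macrophage-like and 0.32 over fibroblast-like cells. The members' medians there were 0.70 and 0.71.

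**Figure D1:**
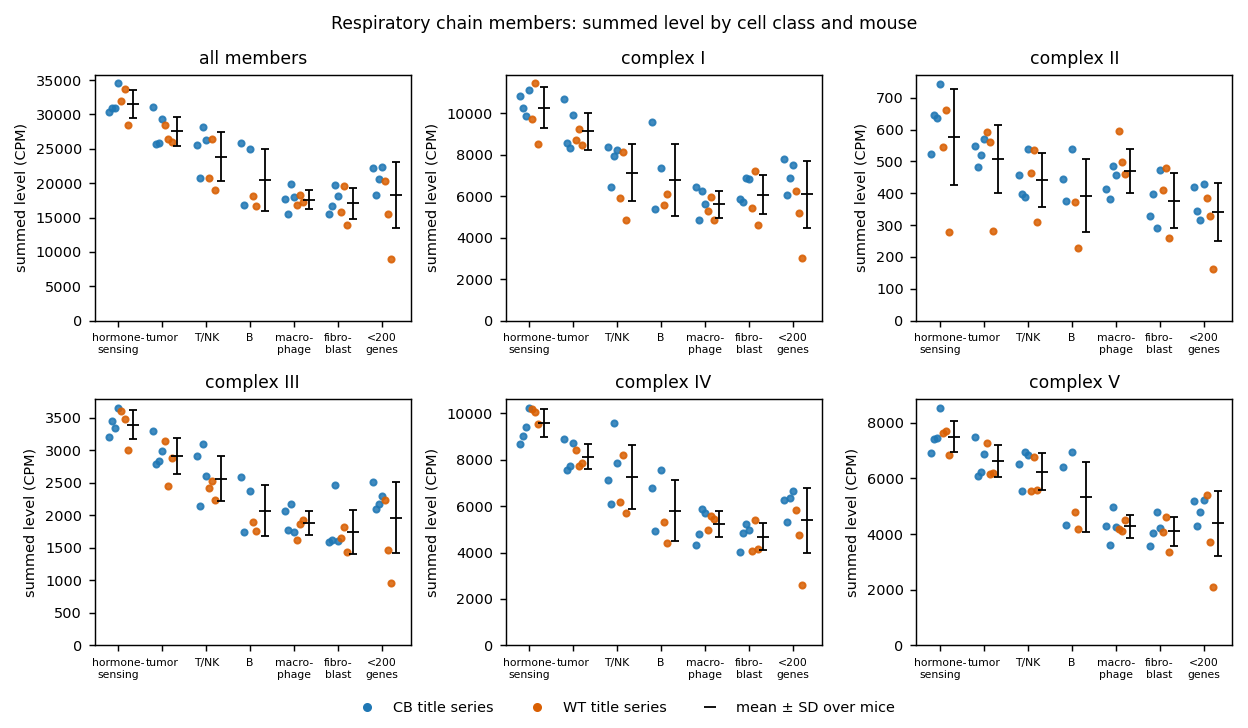
Summed level of the members (CPM, vertical axes starting at 0) for all 85 genes and for complexes I to V, by cell class; "tumor" stands for tumor/alveolar-like cells and "<200 genes" for barcodes under the limit for cells. Each point is 1 tumor, colored by title series, and the bar beside the points is mean ± SD over tumors: the sum over all members averages 31541 CPM in hormone-sensing-like and 27529 CPM in tumor/alveolar-like cells, and 17602 and 17050 CPM in macrophage-like and fibroblast-like cells.

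The larger complexes were likewise highest in the epithelial classes. Complex I summed to 10267 ± 989 CPM in hormone-sensing-like, 9143 ± 891 CPM in tumor/alveolar-like, 7141 ± 1378 CPM in T/NK-like, 5619 ± 656 CPM in macrophage-like and 6073 ± 934 CPM in fibroblast-like cells (SD, n = 7 each). Between tumor/alveolar-like and macrophage-like cells the ratio was 1.63 for complex I and 1.55 for each of complexes III, IV and V, with no overlap of the tumors. Ndufa4, counted in complex I by its symbol, took part with means of 796 and 231 CPM. Ratios with Ndufa4 in complex IV were not computed, so the larger ratio of complex I may depend on this choice. Complex II differed less: it summed to 508 ± 106 CPM in tumor/alveolar-like and 470 ± 69 CPM in macrophage-like cells (n = 7 each), with the tumor/alveolar-like class the higher in 5 of 7 tumors and a ratio of 1.08 (0.612 to 1.33). Beside the sums of the complexes, the single gene Cycs fell furthest towards fibroblast-like cells, from 219 ± 43.9 to 91.3 ± 17.3 CPM, a ratio of 2.40 (2.28 to 2.59) with no overlap. Among single genes, Ndufc2 fell further, from 483 to 178 CPM. In B-like cells Cycs averaged 87 ± 53.3 CPM (n = 5).

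Within the tumor/alveolar-like class, cluster 0, led by Spp1 and Slpi, summed to 24457 ± 1816 CPM, and cluster 1, led by Lalba and Lgals7, to 28991 ± 2248 CPM. Cluster 10, which contains the deepest cells (a median of 4769 UMIs), summed to 29702 ± 2410 CPM (SD, n = 7 each). The share of UMIs from the members changed little with the depth of a cell in the epithelial classes, being 2.73% below 400 and 2.85% above 1600 UMIs in tumor/alveolar-like and 3.45% and 3.30% in hormone-sensing-like cells. In T/NK-like cells it went from 2.15% to 3.10% over the same bins, the last with 51 cells. A member UMI was found in 98.7 to 100% of the cells of each class, with a median of 39 per cell in hormone-sensing-like, 18 in tumor/alveolar-like and 9 in macrophage-like cells. Barcodes below 200 genes, in which free RNA and shallow cells were not separated, gave 18311 ± 4772 CPM (n = 7), lower than either epithelial class and overlapping the others. Of the unnamed clusters, number 8 gave 27842 ± 4010 CPM and number 3, a macrophage-marker cluster led by monocyte genes, 23048 ± 2022 CPM (n = 7 each). Cluster 8 (587 cells) scored best on the hormone-sensing list. At resolution 1 a cluster with the leading genes Slc12a2, Ctr9 and Alcam, which also lead cluster 8, was named hormone-sensing. The mean of cluster 8 lay near that of tumor/alveolar-like cells (27529 CPM) and below that of the named hormone-sensing-like class (31541 CPM).

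Single genes were compared between classes by edgeR on UMIs summed per tumor and class, with the tumor as a block, TMM scaling and adjustment over all genes that passed the filter on low counts. Log2 fold changes are given with an approximate standard error, the absolute change divided by the square root of the test's F statistic. They are relative to the bulk of genes, unlike the shares above. Between 8 and 16 of the 85 members fell under the filter in a comparison and were not tested, and counts below are of those tested. The 4 comparisons with tumor/alveolar-like cells share the tumor/alveolar-like sums and are not independent of each other. TMM matters here: with library totals in its place, the median of all genes moved by -0.08 against hormone-sensing-like, 0.38 against macrophage-like, 0.10 against T/NK-like and 0.27 against fibroblast-like cells, and by -0.27 for macrophage-like against T/NK-like cells. The median of the members minus that of all genes moved less, from 0.25 to 0.23 against macrophage-like and from 0.40 to 0.39 against fibroblast-like cells, and from 0.13 to 0.09 against T/NK-like cells. Without the filter on low counts, however, this gap was 0.06 against macrophage-like, 0.01 against T/NK-like and 0.25 against fibroblast-like cells, and between the immune classes it changed sign, from -0.15 to 0.09. With at least 500 genes per cell, the medians against macrophage-like cells were 0.19 for the members and 0.09 for all genes. In this setting the cells were clustered and named anew. Its cluster led by Saa1, Saa2 and Npy (1201 cells) scored best on the tumor/alveolar list but stayed unnamed. That cluster held 2015 CPM of the viral oncogene, and its cells are not in the tumor/alveolar-like class there.

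**Figure D2:**
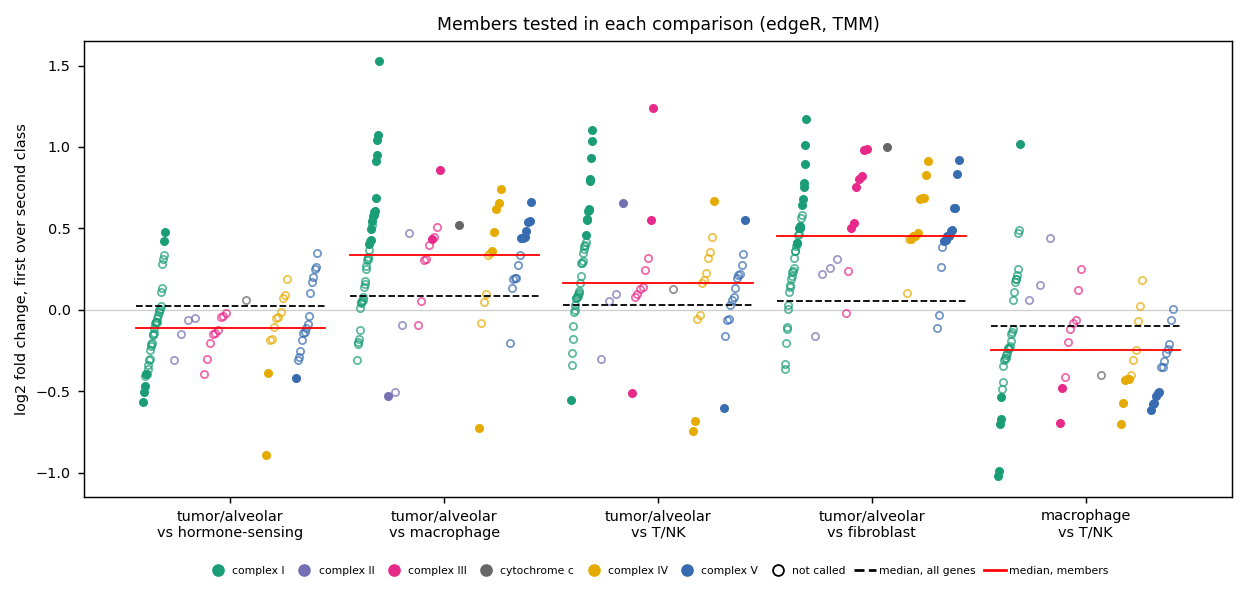
Log2 fold change (edgeR, TMM, vertical axis) of every member tested in the 5 comparisons, the first class named over the second; "tumor/alveolar" stands for tumor/alveolar-like cells and so on. Points are genes colored by complex, filled where the adjusted p was under 0.05; the red line is the median of the members and the dashed line that of all genes tested, which lie at 0.45 and 0.06 against fibroblast-like and at -0.11 and 0.03 against hormone-sensing-like cells.

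Against hormone-sensing-like cells, the other luminal epithelial class, most members did not pass the test. Of 77 members tested, 2 were higher and 8 lower in tumor/alveolar-like cells (2.60% and 10.4%), beside 16.1% and 14.5% of the 7156 genes tested. The members' median was -0.11 and that of all genes 0.03. Complex I held both of the higher genes and 5 of the lower ones, complex IV 2 lower genes and complex V 1, while none of complexes II and III was called. Without TMM, 1 was higher and 16 lower, and by DESeq2 4 and 8. The balance turned without the filter on low counts (4 higher, 2 lower) and with at least 500 genes per cell (8 higher, 7 lower). The latter setting clustered the cells anew, so the classes compared there are not those of the main fit.

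The gene furthest apart was Cox5a, a matrix-side subunit of complex IV (ENSMUSG00000000088.7, chr9:57521274-57532426). Its level ranged from 251 through 291 to 362 CPM in tumor/alveolar-like and from 349 through 582 to 735 CPM in hormone-sensing-like cells. The classes overlapped only between the highest tumor/alveolar-like value (replicate 3) and the lowest hormone-sensing-like value (replicate 1), and Cox5a was the lower in tumor/alveolar-like cells of all 7 tumors (log2 fold change -0.89 ± 0.14, adjusted p = 5.41e-06). Ndufa7, an accessory subunit of complex I, gave 295 through 360 to 468 CPM against 524 through 560 to 629 CPM, with no overlap (-0.50 ± 0.13, adjusted p = 0.00358). Ndufc1, in the membrane arm of complex I (-0.57 ± 0.13, adjusted p = 0.00122), and Ndufs8, a core subunit with iron-sulfur clusters (-0.47 ± 0.14, adjusted p = 0.0131), were also lower.

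The members that were higher in tumor/alveolar-like cells were Ndufc2 and Ndufb9, both accessory subunits of the membrane arm of complex I. Ndufc2 gave 360 through 472 to 586 CPM in tumor/alveolar-like and 140 through 351 to 583 CPM in hormone-sensing-like cells (0.47 ± 0.16, adjusted p = 0.0256, higher in 6 of 7 tumors). Ndufb9 gave 321 through 381 to 549 CPM and 210 through 317 to 437 CPM (0.42 ± 0.14, adjusted p = 0.0180, higher in 7 of 7). Both genes overlapped between the classes. Neither call held without the tumor as a block (adjusted p = 0.104 and 0.112), and Ndufs8 lost its call there too (0.0566). Ndufc2 was also lost without TMM (0.0593), without cluster 10 (0.0516) and without replicate 1 or 4 (0.0553 and 0.0781), and Ndufb9 without replicate 5 (0.0581) and in the CB series alone (0.0808). Ndufs8 was lost in the CB series alone (0.0607) and without replicate 2 (0.102), when 2 members were called higher and 3 lower. Without the filter on low counts, Ndufc1 (0.12), Ndufa7 (0.224) and Ndufs8 (0.437) lost their calls. In the WT series alone (3 tumors) only Cox5a kept its call. Leaving out cluster 10 of the tumor/alveolar-like class gave 1 higher and 15 lower, and leaving out replicate 4, which holds most of the hormone-sensing-like cells, gave 2 and 5.

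Against macrophage-like cells, more members were higher than lower. Of 75 members tested, 29 were higher (38.7%) and 2 lower (2.67%) in tumor/alveolar-like cells, beside 25.0% and 24.2% of the 4577 genes tested, and the medians were 0.34 for the members and 0.08 for all genes. The higher genes were 14 of the 36 tested in complex I, 7 of 14 in complex V, 5 of 11 in complex IV, 2 of 9 in complex III and Cycs. None of the 4 genes of complex II was higher and 1 was lower. Without TMM, 61 members were higher and 1 lower, with medians of 0.70 for the members and 0.47 for all genes. Leaving out the filter on low counts gave 63 and 0, with medians of 0.82 and 0.77. With at least 500 genes per cell, 16 were higher and 3 lower.

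Ndufa4 (ENSMUSG00000029632.7, chr6:11900292-11907497) differed most. It gave 722 through 784 to 923 CPM in tumor/alveolar-like and 161 through 214 to 392 CPM in macrophage-like cells, with no overlap (log2 fold change 1.53 ± 0.16, adjusted p = 1.94e-08). Replicate 1 gave the highest value of both classes. Ndufb9 gave 321 through 381 to 549 CPM against 125 through 148 to 247 CPM (1.08 ± 0.16, adjusted p = 2.60e-06) and Ndufb11, an X-linked subunit of the membrane arm, 285 through 317 to 368 CPM against 61.9 through 151 to 179 CPM (0.95 ± 0.18, adjusted p = 0.000113), neither with overlap. Ndufs5 (1.04 ± 0.35, adjusted p = 0.0148) rested on few UMIs, at 38.2 to 80.3 CPM against 0 to 55.7 CPM, and its call was lost in cells with at least 500 genes (0.19, adjusted p = 0.645) and in the WT series alone (0.74, adjusted p = 0.241).

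The lower members were Cox5a and Sdhb. Cox5a gave 251 through 291 to 362 CPM in tumor/alveolar-like and 165 through 397 to 651 CPM in macrophage-like cells (-0.73 ± 0.16, adjusted p = 0.000508, lower in 6 of 7 tumors). Sdhb gave 72.3 through 170 to 222 CPM and 139 through 179 to 248 CPM (-0.53 ± 0.17, adjusted p = 0.0102). Both overlapped between the classes. Without the filter on low counts the call of Cox5a was lost (-0.23, adjusted p = 0.53), as was that of Sdhb (-0.03, adjusted p = 0.907). The call of Sdhb was also lost by DESeq2 (adjusted p = 0.0527) and without TMM (0.408) or replicate 8 (0.0984). Without replicate 5, 18 members were higher and 2 lower.

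Against T/NK-like cells members were called in both directions, in each at a smaller share than all genes. Of 75 tested, 16 were higher (21.3%) and 5 lower (6.67%) in tumor/alveolar-like cells, beside 28.9% and 25.9% of the 4632 genes tested, and the medians were 0.16 and 0.03. By DESeq2, 36 were higher and 4 lower, with the median of all genes shifted by 0.26, and without replicate 8, with its 31 T/NK-like cells, 19 were higher and 5 lower. Few or no lower calls were left without the filter on low counts (39 higher, 0 lower), in the WT series alone (12 and 0) and in the CB series alone (8 and 1). Complex I, with 36 genes tested, held 11 of the higher genes and 1 of the lower. Complex III held 2 higher and 1 lower, complex IV 1 and 2, complex V 1 and 1, and complex II 1 higher, Sdhc (0.66, adjusted p = 0.00405).

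Uqcr11, a small subunit of complex III, gave 252 through 448 to 656 CPM in tumor/alveolar-like and 77.4 through 169 to 223 CPM in T/NK-like cells, with no overlap (log2 fold change 1.24 ± 0.20, adjusted p = 2.94e-07). Ndufc2 (ENSMUSG00000030647.8, chr7:97400003-97407802) gave 360 through 472 to 586 CPM against 114 through 232 to 332 CPM, also with no overlap (1.10 ± 0.20, adjusted p = 4.16e-06). Ndufb9 (1.04 ± 0.20, adjusted p = 8.28e-06, higher in 6 of 7 tumors) overlapped, since replicate 8 gave 387 CPM in T/NK-like cells, and Ndufb2 (0.93 ± 0.20, adjusted p = 7.19e-05, higher in 7 of 7) did not.

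Lower members were Cox7a2l, Cox5a, Atp5e, Uqcrh and the X-linked complex I subunit gene Ndufa1. Cox7a2l gave 257 through 311 to 403 CPM in tumor/alveolar-like and 232 through 535 to 774 CPM in T/NK-like cells (-0.75 ± 0.19, adjusted p = 0.000739, lower in 6 of 7). Cox5a gave 251 through 291 to 362 CPM against 383 through 412 to 608 CPM, with no overlap (-0.68 ± 0.18, adjusted p = 0.00129). Atp5e gave 356 through 530 to 579 CPM against 619 through 774 to 880 CPM, with no overlap (-0.61 ± 0.20, adjusted p = 0.0074). Ndufa1 (-0.55 ± 0.18, adjusted p = 0.0062) was lower in all 7 tumors but overlapped, and its call was lost by DESeq2 (0.0717). Uqcrh gave 562 ± 69.7 and 781 ± 99.8 CPM (n = 7 each; -0.51, adjusted p = 0.0261). Of the 8 genes with the largest changes, 3 lost their call in the CB series alone and 4 in the WT series alone, all of them lower ones. Without the filter on low counts the same 4 lower genes lost their call, with Cox7a2l at -0.37, Cox5a at -0.31, Atp5e at -0.24 and Ndufa1 at -0.18 (adjusted p = 0.232 to 0.741), and Cox7a2l also with at least 500 genes per cell (-0.50, adjusted p = 0.0535).

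Against fibroblast-like cells all calls went in one direction, apart from 1 lower call in the fit without the filter on low counts. Of 74 members tested, 39 were higher in tumor/alveolar-like cells (52.7%), beside 21.6% of the 4614 genes tested, and 0 were lower, beside 24.2%. At an unadjusted p under 0.05, edgeR gave 43 higher and 1 lower, and DESeq2 gave 42 and 0 at its adjusted p. The medians were 0.45 for the members and 0.06 for all genes. All complexes but II took part: 7 of 9 genes of complex III, 10 of 14 of complex V, 9 of 11 of complex IV, 12 of 35 of complex I and Cycs were higher, and 0 of the 4 genes of complex II.

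Ndufc2 gave 360 through 472 to 586 CPM in tumor/alveolar-like and 105 through 174 to 250 CPM in fibroblast-like cells (log2 fold change 1.17 ± 0.17, adjusted p = 1.15e-05). Cycs (ENSMUSG00000063694.5, chr6:50562563-50566538) gave 163 through 229 to 278 CPM and 70.1 through 91.4 to 117 CPM (0.997 ± 0.17, adjusted p = 7.21e-05). Ndufa12, a peripheral-arm subunit of complex I, gave 203 through 239 to 319 CPM and 58 through 109 to 141 CPM (1.01 ± 0.19, adjusted p = 0.000145). None of these 3 genes overlapped between the classes. Uqcr11 (0.99 ± 0.19, adjusted p = 0.000253, higher in 6 of 7 tumors) did overlap, since replicate 3 gave 252 CPM in tumor/alveolar-like and 290 CPM in fibroblast-like cells. The calls of these 4 genes were kept without each tumor in turn and in each title series alone, in which 34 (CB) and 16 (WT) members were higher and 0 lower.

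Between the immune classes, most members were not called. Of 69 tested, 1 was higher (1.45%) and 18 were lower (26.1%) in macrophage-like than in T/NK-like cells, beside 27.9% and 29.9% of the 1798 genes tested, so the share of lower members did not exceed that of all genes. The medians were -0.25 and -0.10. The lower genes were 6 of 14 in complex V, 5 of 11 in complex IV, 5 of 31 in complex I and 2 of 9 in complex III. By DESeq2, 4 were higher and 9 lower, and without TMM 1 and 39. Leaving out replicate 1, 2, 4 or 7 left 12, 12, 10 or 11 calls in all, and leaving out replicate 8 left 1 higher and 14 lower.

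The 1 higher gene was Ndufc2, at 320 through 334 to 510 CPM in macrophage-like and 114 through 232 to 332 CPM in T/NK-like cells (log2 fold change 1.02 ± 0.19, adjusted p = 6.76e-05, higher in 7 of 7 tumors). Ndufa4 moved the other way, at 161 through 214 to 392 CPM against 155 through 513 to 635 CPM (-1.02 ± 0.19, adjusted p = 5.62e-05, lower in 6 of 7). Both overlapped between the classes, Ndufa4 only because replicate 8 had 154.7 CPM in T/NK-like cells. Ndufb11 (-0.99 ± 0.25, adjusted p = 0.00178), Ndufa6 (-0.70 ± 0.17, adjusted p = 0.00105) and Cox7a2l (-0.70 ± 0.20, adjusted p = 0.00461) were also lower. With at least 500 genes per cell Ndufb11 was at -0.46 (adjusted p = 0.108) and Cox7a2l at -0.34 (adjusted p = 0.224), and none of these 3 genes kept its call in the WT series alone (Ndufb11 -0.61, Ndufa6 -0.66 and Cox7a2l -0.24). Without the filter on low counts Ndufa6 (-0.57, adjusted p = 0.212) and Cox7a2l (-0.57, adjusted p = 0.197) lost their calls.

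Single members took different orders over the classes. Ndufa4 was highest in tumor/alveolar-like (796 ± 70.2 CPM) and hormone-sensing-like cells (776 ± 97.3 CPM) and lowest in macrophage-like cells (231 ± 77.3 CPM, n = 7 each). For Ndufc2, macrophage-like cells (389 ± 82.7 CPM) stood beside tumor/alveolar-like cells (483 ± 74.7 CPM; log2 fold change 0.01, adjusted p = 0.971) and fibroblast-like cells were lowest (178 ± 55.6 CPM). Cox5a ran from hormone-sensing-like (595 ± 135 CPM) over T/NK-like (449 ± 83.8 CPM) and macrophage-like (392 ± 143 CPM) to tumor/alveolar-like (293 ± 40.2 CPM) and fibroblast-like cells (168 ± 57.8 CPM), and the last step did not pass the test (0.43, adjusted p = 0.0824). Cox7a2l was highest in T/NK-like cells (524 ± 159 CPM) and stood at 327 ± 57.1 CPM in tumor/alveolar-like, 345 ± 65.9 CPM in hormone-sensing-like and 193 ± 62.6 CPM in fibroblast-like cells. In barcodes below 200 genes these 4 genes gave 408, 248, 239 and 297 CPM.

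**Figure D3:**
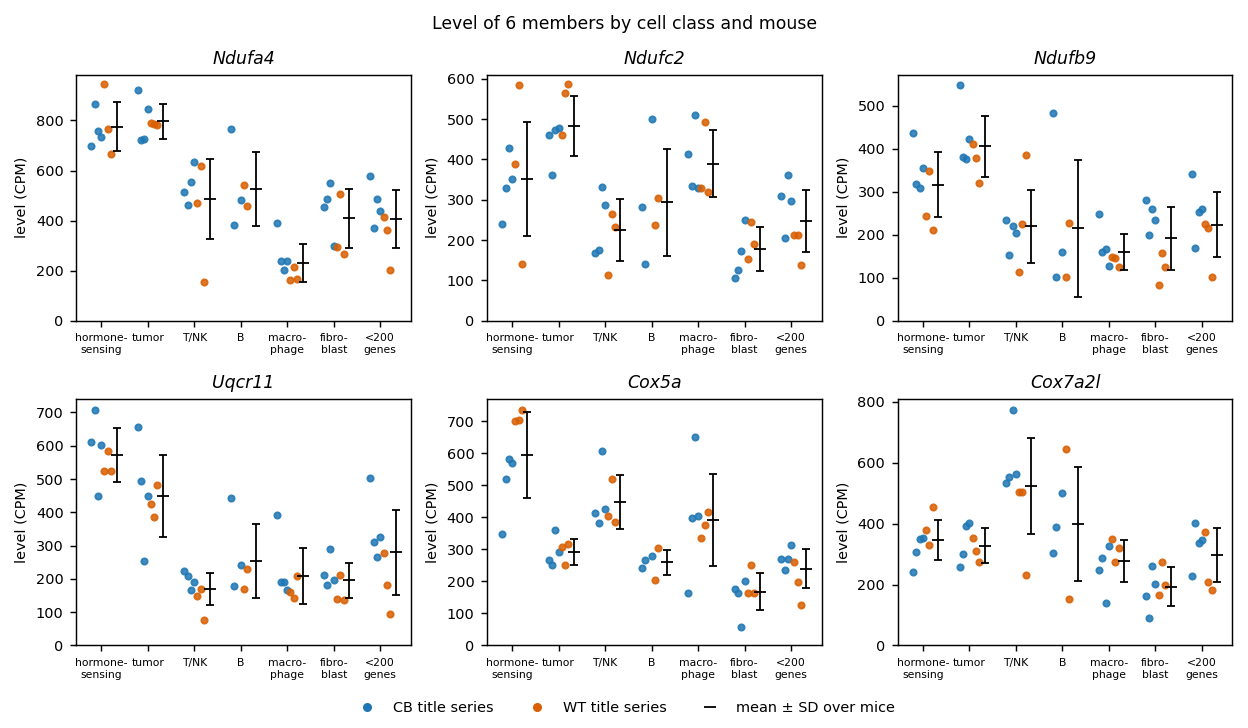
Level (CPM, vertical axes starting at 0) of Ndufa4, Ndufc2, Ndufb9, Uqcr11, Cox5a and Cox7a2l by cell class, with 1 point per tumor colored by title series and mean ± SD over tumors beside the points; "tumor" stands for tumor/alveolar-like cells and "<200 genes" for barcodes under the limit for cells. Ndufa4 is lowest in macrophage-like cells (231 CPM), whereas Ndufc2 there averages 389 CPM and Cox5a is highest in hormone-sensing-like cells (595 CPM).

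Ndufa4 and Atp5e, whose larger changes are given above, were among the 2 genes with the highest level in their complex, and the others are given here. Cox4i1, the largest nuclear subunit of complex IV, gave 1228 ± 104 CPM in tumor/alveolar-like, 1721 ± 262 CPM in hormone-sensing-like and 969 ± 214 CPM in macrophage-like cells (n = 7 each), and its log2 fold change was -0.39 against hormone-sensing-like cells (adjusted p = 0.0489) and 0.05 against macrophage-like cells (adjusted p = 0.828). Cox7c was higher in tumor/alveolar-like than in macrophage-like (0.74, adjusted p = 0.00031) and fibroblast-like cells (0.69, adjusted p = 0.00153). Atp5b was higher than in macrophage-like (0.45, adjusted p = 0.0222) and fibroblast-like cells (0.62, adjusted p = 0.00347). Ndufa13 and Uqcrq passed the test in none of the 5 comparisons, and Uqcrh passed it only against T/NK-like cells and between the immune classes (-0.70, adjusted p = 0.00103). Cyc1 was higher than in fibroblast-like cells (0.82, adjusted p = 0.00418). Sdha and Sdhd, of complex II, were called in none, with Sdhd at -0.50 against macrophage-like cells (adjusted p = 0.0535).

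Tissue-restricted isoforms were at low levels throughout, and 1 of them, Cox8b, was found mainly in tumor/alveolar-like cells. Cox8b, the isoform of heart, skeletal muscle and brown fat (ENSMUSG00000025488.9, chr7:140898945-140900446), had 181 UMIs in tumor/alveolar-like cells and at least 1 in all 7 tumors, at 8.03 through 23.8 to 39.4 CPM. It made up 2.44% of the UMIs of Cox8a and Cox8b together, Cox8a being the form of most tissues (862 ± 123 CPM, n = 7). Hormone-sensing-like and T/NK-like cells had 0 UMIs of Cox8b, which over the whole class allows up to 1.29 and 2.47 CPM (3 counts), so the tumor/alveolar-like level of 22.2 CPM over the pooled class was at least 17.1-fold and 8.98-fold higher. Without replicate 4, which gives most hormone-sensing-like UMIs, the first bound was 6.88-fold, and leaving out each replicate in turn, an alternative chosen after seeing the data, gave bounds of 6.88 to 19.5-fold and 6.18 to 9.44-fold. Macrophage-like and fibroblast-like cells had 1 UMI each and B-like cells 3, and barcodes below 200 genes had 23 UMIs (8.97 CPM over all). Within the class, cluster 1 gave 30 CPM, cluster 10 26.2 CPM and cluster 0 13.4 CPM over the pooled cells. The unnamed cluster 11, led by Mylk, Acta2 and Igfbp3, had a higher level still, 53.9 CPM from 21 UMIs. With 20 principal components these UMIs lay in a myoepithelial-like cluster (76.7 CPM), where Cox8b was 10% of both isoforms. Cox8b fell under the filter on low counts and was not tested by edgeR.

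Cox7a1, the muscle form beside Cox7a2, had 140 UMIs in tumor/alveolar-like cells (17.2 CPM over the pooled class, in 7 of 7 tumors) and 33 in hormone-sensing-like cells (14.2 CPM, in 4 of 7). Cox7a2 stood at 637 ± 62.2 CPM in tumor/alveolar-like cells. Ndufa4l2, a paralog of Ndufa4 known to be induced by hypoxia, had 45 UMIs in all cells, 22 of them in fibroblast-like cells (21.9 CPM, in 6 of 7 tumors), where it made up 5.70% of the pair. It had 7 UMIs in tumor/alveolar-like cells and 0 in T/NK-like and B-like cells, and 5 in the unnamed cluster 11, where 2 UMIs made 234 CPM in 1 tumor. Cox4i2, the form of lung and of oxygen-sensing cells, had 23 UMIs in all cells, 15 of them in cluster 11, and with 20 principal components 11 lay in an endothelial-like cluster (113 CPM). Cox6b2, known from testis, had 35 UMIs in hormone-sensing-like cells of 4 tumors but also 36 in barcodes below 200 genes. Cox6a2, the muscle form of Cox6a1, had 28 UMIs in all cells, and Cox8c, a further isoform of Cox8a, had 3 UMIs. Cox6a1 and Cox6b1, the broadly expressed partners of Cox6a2 and Cox6b2, stood at 947 ± 58.7 and 797 ± 59 CPM in tumor/alveolar-like cells (n = 7). These floors and levels cover counting error only.

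**Figure D4:**
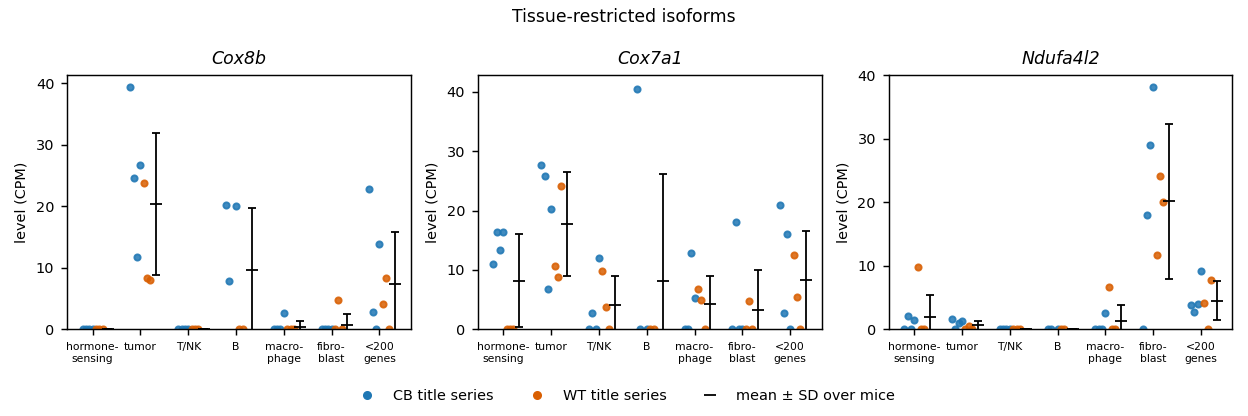
Level (CPM, vertical axes starting at 0) of the isoforms Cox8b, Cox7a1 and Ndufa4l2 by cell class, with 1 point per tumor colored by title series and mean ± SD over tumors beside the points (lower bars are truncated at 0); "tumor" stands for tumor/alveolar-like cells and "<200 genes" for barcodes under the limit for cells. Cox8b lies between 8.03 and 39.4 CPM in the 7 tumors in tumor/alveolar-like cells and at 0 in hormone-sensing-like and T/NK-like cells, and Ndufa4l2 is highest in fibroblast-like cells among the 6 named classes.

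The c ring of complex V is encoded by 3 genes whose mature proteins are identical. Atp5g1 and Atp5g3 shared almost all of these UMIs, with 48.9% and 47.3% in tumor/alveolar-like and 40.3% and 54.5% in T/NK-like cells, and Atp5g2 had 3.75% and 5.14%. In fibroblast-like cells Atp5g1 had 41.8% and Atp5g3 55.1% of 361 UMIs. These shares are over pooled cells and were not tested.

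Genes that build, feed or regulate the chain were described by counts. Of 48 assembly factors, 34 were tested against hormone-sensing-like cells (1 higher, 4 lower) and 17 to 18 in the other comparisons with tumor/alveolar-like cells, with 4 higher and 1 lower against macrophage-like, 3 and 4 against T/NK-like and 1 and 1 against fibroblast-like cells. Of all genes tested, 16.1% were higher and 14.5% lower against hormone-sensing-like, 25.0% and 24.2% against macrophage-like, 28.9% and 25.9% against T/NK-like and 21.6% and 24.2% against fibroblast-like cells. Acad9, a factor for complex I, was higher than in hormone-sensing-like (1.36 ± 0.30, adjusted p = 0.00077) and fibroblast-like cells (1.20 ± 0.36, adjusted p = 0.0102). Uqcc2, a factor for complex III, was lower than in the same classes (-0.87 ± 0.14, adjusted p = 1.52e-05 and -0.89 ± 0.18, adjusted p = 0.000449). Cox17, a copper chaperone for complex IV, was lower than in hormone-sensing-like cells (-0.79 ± 0.17). Against macrophage-like cells Fmc1 (1.31 ± 0.29), Uqcc3 (1.30 ± 0.30) and Coa6 (1.09 ± 0.37) were higher. Against T/NK-like cells Cox19 (1.05 ± 0.31) and Coa3 (0.93 ± 0.25) were higher and Ndufaf4 (-0.87 ± 0.28) was lower.

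Of 18 genes of the tricarboxylic acid cycle and pyruvate dehydrogenase, which deliver NADH and succinate, 8 of 17 tested were higher and 1 lower than in fibroblast-like cells, 5 and 1 of 17 than in macrophage-like cells, 3 and 0 of 17 than in T/NK-like cells and 1 and 3 of 18 than in hormone-sensing-like cells. The shares of all genes tested that were higher were 21.6%, 25.0%, 28.9% and 16.1% in the same order, and those that were lower 24.2%, 24.2%, 25.9% and 14.5%. Suclg1 was higher than in macrophage-like (1.04 ± 0.22), T/NK-like (0.59 ± 0.21) and fibroblast-like cells (1.17 ± 0.21). Pdha1, of pyruvate dehydrogenase, was higher than in macrophage-like cells (1.66 ± 0.27) and Idh2 higher than in T/NK-like cells (2.34 ± 0.32). Idh3a (-0.85 ± 0.20) and Fh1 (-0.83 ± 0.19) were lower than in hormone-sensing-like cells. Of 11 genes of ATP export and coupling, all tested in the comparisons with tumor/alveolar-like cells, 3 passed the test against hormone-sensing-like cells, all lower (Vdac1 -0.83 ± 0.14, Higd1a -0.57 ± 0.20 and Atpif1 -0.39 ± 0.13). In this list 4 were higher and 3 lower than in macrophage-like, 5 and 2 than in T/NK-like and 5 and 1 than in fibroblast-like cells, and 3 and 1 of 8 between the immune classes. Of all genes tested between the immune classes, 27.9% were higher and 29.9% lower in macrophage-like cells. Chchd10 was higher than in macrophage-like (1.74 ± 0.26), T/NK-like (1.42 ± 0.23) and fibroblast-like cells (1.80 ± 0.31). Ucp2, an uncoupling protein homolog, was lower than in macrophage-like cells (-2.19 ± 0.15) and higher than in fibroblast-like cells (2.46 ± 0.43). Slc25a4, the ADP/ATP carrier of muscle and heart, was lower than in fibroblast-like cells (-1.14 ± 0.16). The 13 regulators were mostly below the filter, with 7 tested against hormone-sensing-like cells and 2 or 3 in the other comparisons with tumor/alveolar-like cells. Myc was higher than in hormone-sensing-like (1.51 ± 0.21) and lower than in fibroblast-like cells (-1.74 ± 0.23), and Tfam, the packaging factor of mitochondrial DNA, was lower than in T/NK-like cells (-1.09 ± 0.27). Between the immune classes, 5 assembly factors were tested with 1 lower in macrophage-like cells (Cox20, -0.76 ± 0.23), beside 29.9% of all genes tested.

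Mitochondrially encoded genes were listed only for replicates 7 and 8, so the counterpart of the nuclear subunits can be seen in 2 tumors. In tumor/alveolar-like cells replicate 7 had 25218 UMIs of mitochondrial protein genes, 1.28% of UMIs or 0.494 per UMI of a member, and replicate 8 had 4249, 1.65% or 0.658 per member UMI. In fibroblast-like cells the ratios were 0.339 and 0.257 and in macrophage-like cells 0.398 and 0.399. They were 0.371 and 0.394 in hormone-sensing-like and 0.326 and 0.461 in T/NK-like cells, and 0.479 in B-like cells of replicate 7, the 1 of these tumors with enough of them. The tumor/alveolar-like ratio was the highest in both tumors, narrowly so beside B-like cells, with mt-Co1, the catalytic core of complex IV, as the gene with most UMIs in tumor/alveolar-like cells. With 2 tumors no test was made, and the lists differ in length (9 and 12 of these genes).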

How the data were processed

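Drop-seq libraries of 7 control tumors were deposited by the authors as matrices of UMI counts per gene and barcode. The paper describes alignment to mm10 with the PyMT sequence added, whereas the submitters' processing notes list STAR, FastQC and the builds GRCh37.p13 and hg19. Barcodes with 200 to 6000 genes, mitochondrial genes left out, were kept, and no doublet caller was used beyond that upper limit. Cells were clustered with Seurat 5.3.0 (R 4.3.3; 587 variable genes, none a member; 9 principal components; resolution 0.6), without batch correction, and clusters were named from marker lists. Mitochondrial genes are listed in 2 of the 7 matrices.

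Counts were summed per tumor and class where a tumor had at least 10 cells of it, and tested with edgeR 4.0.16 (TMM, filterByExpr, quasi-likelihood test, Benjamini-Hochberg adjustment over all genes tested, threshold 0.05) with the tumor as a block, since both sums come from the same mouse. The fits were also run on simulated counts in which 200 genes were changed by known folds. Those counts held no differences between mice, so they do not test the pairing within a mouse. With this block, p-values measure how the difference between the classes within a mouse varies from mouse to mouse. CPM are UMIs per 1000000 UMIs of the class, and medians over tumors stand between the lowest and highest values. Sums held 12928 to 1935423 UMIs, and floors (3 UMIs) cover counting error only. DESeq2 1.42.0, other scalings, filters, clusterings and subsets were alternatives.

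Members and gene lists were chosen with earlier results of these data known. Genes named with a test were up to 4 higher and 4 lower members per comparison with the largest changes past the threshold, the 2 members with the highest level in each complex, Sdha to Sdhd, Cyc1, Cycs and tissue-restricted isoforms with their partners, and up to 3 genes per comparison from each other list. Other genes were named after their values were seen.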

Additional observations from a re-analysis of the deposited data

Results flagged for a closer look

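In 10 of 89 groups of 5 or 7 samples, 1 library stood apart from the others by Dixon's test, which chance alone does in about 1 of 20 groups. In tumor/alveolar-like cells, complex II summed to 281 CPM in replicate 8 and 483 to 593 CPM in the other 6 tumors. Atp5e was at 356 CPM in replicate 3 beside 493 to 579 CPM, and Ndufc1 at 485 CPM in replicate 1 beside 277 to 357 CPM. Replicate 1 was also high for Ndufc1 in hormone-sensing-like cells (753 CPM beside 419 to 549 CPM), and in macrophage-like cells for Ndufa4 (392 CPM beside 161 to 238 CPM) and Ndufb9 (247 CPM beside 125 to 166 CPM). In fibroblast-like cells complex III summed to 2463 CPM in replicate 3 and 1433 to 1822 CPM in the others.

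In T/NK-like cells replicate 8, whose sum holds 12928 UMIs from 31 cells, was low for Ndufa4 (155 CPM beside 464 to 635 CPM) and had 0 UMIs of Ndufb11 (0 CPM beside 263 to 344 CPM) and of Ndufb2 (0 CPM beside 97.7 to 169 CPM). A count of 0 in this sum allows up to 3 UMIs.

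UMIs of mitochondrially encoded protein genes, which no comparison used, were found in the 2 matrices that list them: 25218 UMIs in tumor/alveolar-like cells of replicate 7 and 4249 of replicate 8.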

How the results depend on the processing

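Counts of members called depended on scaling and filter more than their direction did. Against hormone-sensing-like cells the 10 calls became 17 without TMM, 6 without the filter on low counts (4 higher, 2 lower), 15 with at least 500 genes per cell (8 higher, 7 lower), 3 without the replicate block, 1 in the WT series alone and 16 without cluster 10, an alternative chosen after seeing the data, and 5 to 13 leaving out 1 tumor. Without the filter and with 500 genes more calls were thus higher than lower, the reverse of 2 higher and 8 lower. Against macrophage-like cells the 31 calls became 62 without TMM, 63 without the filter, 19 with 500 genes, 47 in 1 fit over all named classes and 12 in the WT series, and 20 to 37 leaving out 1 tumor. Against T/NK-like cells the 21 calls became 40 by DESeq2, 39 without the filter, 32 in 1 fit, 9 in the CB series and 12 in the WT series, and 18 to 27 leaving out 1 tumor. Against fibroblast-like cells the 39 calls became 59 without TMM, 61 without the filter and 16 in the WT series, and 29 to 46 leaving out 1 tumor. Between the immune classes the 19 calls became 40 without TMM, 3 without the filter, 10 with 500 genes, 12 with 20 principal components, 12 at resolution 1, 10 in the CB series and 2 in the WT series, and 10 to 16 leaving out 1 tumor. The causes were not tested, except that a series alone has fewer tumors and that the setting with 500 genes also named its classes anew. Calls added without the filter go with a shift of all genes, whose median was then 0.77 beside 0.82 for the members against macrophage-like, 0.55 beside 0.57 against T/NK-like and 0.64 beside 0.89 against fibroblast-like cells. Without TMM it was 0.47 beside 0.70 against macrophage-like, 0.32 beside 0.71 against fibroblast-like cells and -0.38 beside -0.52 between the immune classes. The share of all genes called was taken only for the main fits, so counts under alternatives have no such share beside them.

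Without the replicate block the other comparisons gave 23, 17, 30 and 13 calls, in the order above. Of 29 calls of named members, 25 were kept in each fit that left out 1 tumor, and none reversed under any alternative, but 14 were lost in the WT series alone, 11 without the filter on low counts, 6 in the CB series alone, 4 with 500 genes and 3 without the block. Levels of complexes moved by more than 1 SD in 16 of 396 cases. With at least 500 genes, where the classes came from a new clustering, in tumor/alveolar-like cells complex III was 3230 CPM, IV 8883 CPM and V 7476 CPM. In macrophage-like cells complexes I to V were then 6784, 604, 2236, 6679 and 5067 CPM, and in T/NK-like cells complex II was 561 CPM, Cycs 272 CPM and complex V 7204 CPM. Without marker and milk genes in the total, macrophage-like complexes III, IV and V were 2084, 5808 and 4753 CPM. Complex IV there was 5791 CPM with 20 principal components and 6054 CPM at resolution 1. Depth limits the rare isoforms and the T/NK-like sum of replicate 8.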
